A study of Mus musculus with 33 samples.

Results

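The colony-stimulating factor ligands and receptors of the myeloid lineage, together with Flt3, were followed through 33 RNA-seq libraries of mouse microglia. The genes were taken by name, though earlier results of these data were known when they were chosen. They were the ligands Csf1 and Il34, their receptor Csf1r, the GM-CSF receptor chains Csf2ra, Csf2rb and Csf2rb2, the G-CSF receptor Csf3r, and the Flt3 receptor. These are 8 of 54146 genes counted, and all 8 passed the low-count filter when the 33 libraries were fitted together.

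Microglia were taken from each brain of C57BL/6 mice without enzymes and sorted by flow cytometry, and all mice were labelled female. The libraries formed 10 groups. At 3 months, WT was compared with the IRF8KO genotype (4 libraries each), which lacks the transcription factor IRF8. At 9 months, WT, IRF8KO, 5xFAD and 5xFAD/IRF8KO had 3 libraries each. 5xFAD mice carry human transgenes with mutations of familial Alzheimer's disease, driven in neurons by the Thy1 promoter. A further WT group and Batf3KO (genotype Batf3-/-), which lacks the leucine zipper factor BATF3, had 3 libraries each at 3 months. The conditional experiment compared 3 libraries of IRF8flox mice, called flox here, with 4 that also carried the Cx3cr1CreERT2 driver and the Rosa26LSL-EYFP reporter, called Cre here. Both arms received tamoxifen for 5 days from postnatal day 12 and were profiled at 3 months, and for the deletion YFP-positive cells were sorted. Cre is driven here by Cx3cr1, which other myeloid cells express beside microglia. Each IRF8KO and Batf3KO group is set against WT libraries titled or aged as its control. The labels do not state which exons the IRF8KO allele lacks.

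CSF1 and IL-34 both bind CSF1R, a receptor tyrosine kinase on which adult microglia depend for survival. IL-34 is made mainly by neurons in the brain, and CSF1 by glia and by microglia themselves. GM-CSF binds the CSF2RA chain, which then pairs with the common beta chain encoded by Csf2rb. Mice also have the beta chain encoded by Csf2rb2, which serves IL-3. CSF3R is the receptor through which G-CSF drives neutrophil production, and FLT3 acts in blood progenitors and dendritic cells. IRF8 steers myeloid progenitors away from the neutrophil fate, and mice without it overproduce neutrophils.

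Levels are given in CPM, a gene's counts scaled to the library's counts in all genes. The tests also applied TMM scaling, so a log2 fold change can differ from the ratio of CPM values. Genes were called at an edgeR adjusted p under 0.05, adjusted over all genes tested. Depth ran from 605376 to 18357762 counts in genes per library, and WT at 9 months was the shallowest group (605376 to 5757466). The microglial identity of the libraries was checked with 10 markers, among them P2ry12 and Tmem119. Their summed share of counts was 3.61% to 5.97% in the WT and 5xFAD groups at 9 months, the Batf3 experiment and the conditional experiment. It was 1.07% to 2.57% in WT at 3 months of the IRF8KO experiment and 0.341% to 0.929% in the 10 libraries of IRF8KO genotype, where Sall1 stood at 0 in all 3 of 5xFAD/IRF8KO. Summed Y-linked transcripts exceeded 1 CPM in 18 of the 33 libraries labelled female, and Xist was under 1 CPM in 7 of these. At 9 months the Y-linked sums were 275 to 307 CPM in WT and 0 to 156 CPM in 5xFAD (median 0). They were 4.63 to 149 CPM in IRF8KO and 230 to 269 CPM in 5xFAD/IRF8KO. At 3 months they were 7.81 to 107 CPM in WT and 118 to 161 CPM in IRF8KO, where Xist was 0 in every library. Sex-linked RNA thus differed between arms that are compared.

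The targeted genes were checked next. Irf8 was 218 to 262 CPM in the WT libraries and 83.1 to 171 CPM in IRF8KO at 3 months, a log2 fold change of -1.12 (edgeR adjusted p = 0.0415). At 9 months, Irf8 ranged from 770 to 797 CPM among WT libraries and 13.3 to 131 CPM in IRF8KO (-3.04, edgeR adjusted p = 0.00152). Within 5xFAD it was 566 to 682 CPM with the gene and 67.9 to 89.1 CPM in 5xFAD/IRF8KO (-2.79, edgeR adjusted p = 0.00256). Counts per gene do not separate deleted from kept exons, so a remainder of Irf8 counts does not measure the deletion. Batf3 was 23.1 to 26.8 CPM in the WT libraries and 0.441 to 0.529 CPM in Batf3KO. In the conditional experiment, Irf8 was 1160, 1170 and 1020 CPM in flox and 1220, 423, 382 and 457 CPM in Cre. The library labelled Cre replicate 1 therefore went against its label.

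Csf1r (chr18:61100598-61132149, plus strand, GRCm38) was the most abundant of the 8 genes per kilobase of exon in all 33 libraries. Its mean was 24000 ± 523 CPM (SD, n = 3) in WT of the Batf3 experiment and 22600 ± 511 CPM (n = 3) in Batf3KO. WT at 9 months followed with 15700, 11000 and 16600 CPM, and 5xFAD with 7980, 6180 and 5800 CPM. These 4 groups did not overlap one another. The other 6 groups lay lower, from flox (3270 to 3670 CPM) and Cre (2760 to 3900 CPM), through WT (1380 to 3950 CPM) and IRF8KO at 3 months (1300 to 3390 CPM), to 5xFAD/IRF8KO (1350 to 2250 CPM) and IRF8KO at 9 months (686 to 2310 CPM). Each of these 6 overlapped its neighbour in that order. Exons of Csf1r overlap Hmgxb3 on the other strand, and the counts do not separate strands.

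Csf3r (chr4:126024550-126044440, plus strand) ranked next to Csf1r per kilobase in all 33 libraries. Its order across groups was led by WT of the Batf3 experiment at 1080 ± 26.9 CPM (n = 3), then Batf3KO (816 to 872 CPM) and WT at 9 months (749 to 809 CPM), 3 groups without overlap. 5xFAD (644 to 780 CPM), IRF8KO at 3 months (435 to 660 CPM), 5xFAD/IRF8KO (199 to 666 CPM) and IRF8KO at 9 months (185 to 731 CPM) came next and overlapped their neighbours. Flox (222 to 306 CPM), Cre (162 to 262 CPM) and WT at 3 months of the IRF8KO experiment (116 to 175 CPM) were lowest. That last group and WT of the Batf3 experiment share genotype, strain and labelled age.

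**Figure D1:**
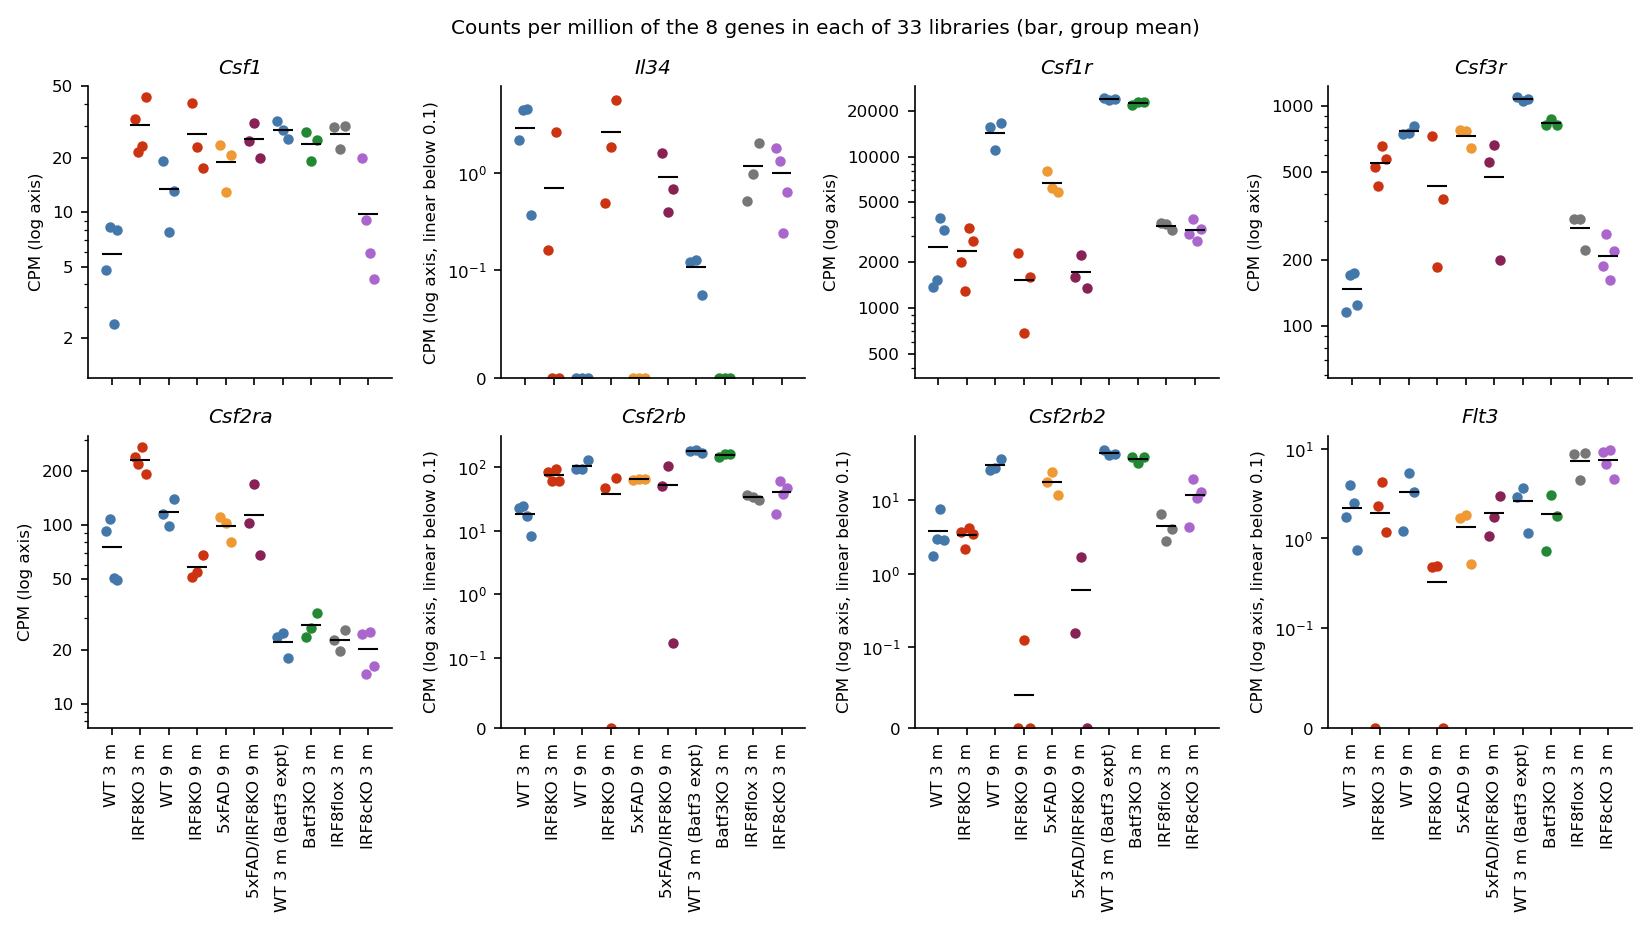
CPM of the 8 genes (vertical axes, log scale, with a linear stretch below 0.1 where a library is at 0) in each of the 33 libraries, grouped on the horizontal axis. Each point is 1 library and each bar a group mean. Csf1r reaches 22000 to 24500 CPM in both groups of the Batf3 experiment, and Csf2rb2 lies at 0 to 1.66 CPM in the 6 libraries of IRF8KO genotype at 9 months.

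Neutrophils are known for Csf3r, so both receptors were set against 15 neutrophil genes. These comprised 4 of early granules (Elane, Mpo, Prtn3, Ctsg), 4 of late granules (Ltf, Ngp, Camp, Lcn2) and 7 of mature cells, such as S100a8, S100a9 and Ly6g. Their sum was 1.89 to 4.77 CPM in WT of the Batf3 experiment, where 9 of the 15 genes, all 4 of early granules among them, stood at 0 in all 3 libraries. Csf3r was highest in that group, at 1100, 1050 and 1080 CPM. WT at 9 months likewise had 9 of 15 neutrophil genes at 0, a sum of 0.597 to 4.96 CPM, and Csf3r at 749, 753 and 809 CPM. In 5xFAD, 5 of the 15 were at 0, the sum was 0.336 to 2.07 CPM, and Csf3r was 780, 770 and 644 CPM. Csf3r at 644 to 1100 CPM was thus measured in libraries whose defining neutrophil transcripts were at or near 0.

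Csf3r was also set beside the neutrophil share in the libraries rich in neutrophil RNA. In WT at 3 months of the IRF8KO experiment, the 15 genes made up 4.82%, 4.36%, 0.867% and 5.4% of counts, while Csf3r was 116, 171, 175 and 125 CPM. Those 4 libraries held more neutrophil RNA and less Csf3r than any of the 6 libraries of the Batf3 experiment. Csf1r was lower in them as well (1380 to 3950 against 22000 to 24500 CPM). Between the WT groups of these experiments, 42.8% of all genes differed, so this contrast is not particular to Csf3r. In IRF8KO at 3 months the neutrophil share was 10.3%, 16.7%, 8.35% and 7.75%. Csf3r was 529, 435, 660 and 574 CPM there, lowest in the library with the largest share, but above WT of that experiment. In 5xFAD/IRF8KO the order was the reverse, with shares of 12.8%, 14.9% and 8.29% and Csf3r at 556, 666 and 199 CPM. In IRF8KO at 9 months the shares were 8.96%, 9.13% and 6.53%, and Csf3r was 731, 185 and 376 CPM. The part of neutrophils in Csf3r was not tested. In bulk RNA, fewer cells of a type and less RNA per cell cannot be told apart.

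**Figure D2:**
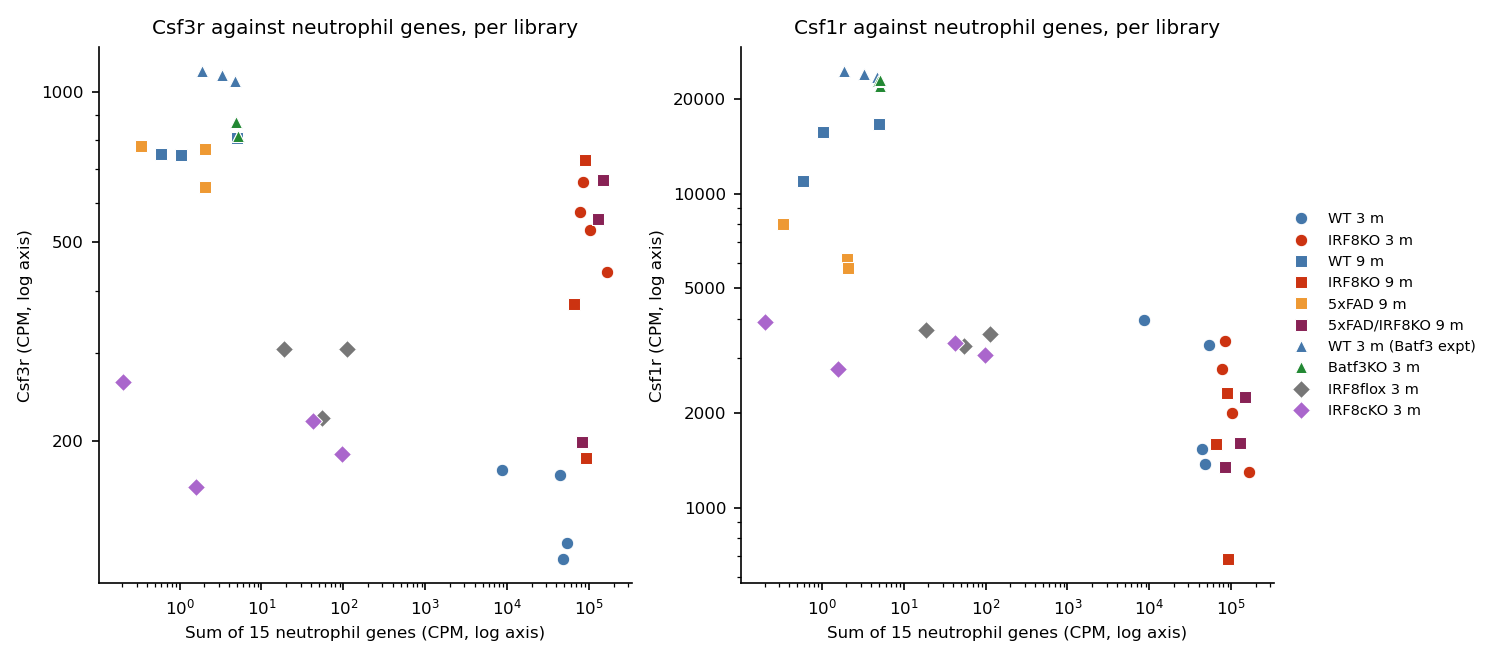
Csf3r (left) and Csf1r (right) in CPM on log vertical axes against the summed CPM of 15 neutrophil genes on a log horizontal axis, with 1 point per library and colour and shape for the 10 groups. The highest Csf3r values, 1050 to 1100 CPM, belong to libraries with neutrophil sums of 1.89 to 4.77 CPM, while WT libraries at 3 months with sums of 8670 to 54000 CPM hold 116 to 175 CPM.

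The balance of the receptors separated the libraries of IRF8KO genotype from the rest. Csf1r per kilobase exceeded Csf3r per kilobase 1.82 to 4.24 times in those 10 libraries, and 5.02 to 17.6 times in the other 23. The group mean of this ratio was 2.61 ± 0.622 (n = 4) in IRF8KO at 3 months, 2.32 ± 0.349 (n = 3) in IRF8KO at 9 months and 2.72 ± 1.32 (n = 3) in 5xFAD/IRF8KO. The nearest group was 5xFAD at 5.67 ± 0.686 (n = 3), and the farthest Batf3KO at 16.9 ± 0.647 (n = 3). WT gave 10.9 ± 5.25 (n = 4) at 3 months, with libraries from 5.63 to 16.6, and 11.7 ± 2.24 (n = 3) at 9 months. The neutrophil genes were 0.867% to 5.4% of counts in the former and at most 0.000496% in the latter. Their part in the ratio was not tested. The ratio in Cre libraries, 9.92 ± 0.628 (n = 4), lay above that in flox, 8.01 ± 1.05 (n = 3), and on the side of WT. The split by genotype was seen in the data and is given without a test.

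Among the ligands, Csf1 (chr3:107741048-107760469, minus strand) was detected in all 33 libraries, from 2.4 to 43.5 CPM. Il34 (chr8:110741829-110805924, minus strand) was the lowest of the 8 genes per kilobase in 21 libraries, and it was at 0 in 11. All 3 libraries of WT at 9 months, of 5xFAD and of Batf3KO were at 0, which allows up to 0.373, 0.155 and 0.0608 CPM over each group. The 7 neuron markers summed to 2.08 to 5.38, 2.35 to 4.15 and 4.6 to 6.35 CPM there. Il34 reached its highest value, 5.58 CPM, in IRF8KO at 9 months, where the neuron sum was 585 to 2880 CPM. The part of neuronal RNA in Il34 was not tested, and antisense genes (Gm15894, Gm15895) overlap its exons, so its counts are uncertain.

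Csf2ra (chr19:61223957-61228429, minus strand), the GM-CSF binding chain, ranged from 14.6 to 32.1 CPM in the 4 groups of the Batf3 and conditional experiments. It ranged from 48.9 to 272 CPM in the other 6 groups. Flt3 (chr5:147330741-147400489, minus strand) was 4.52 to 9.73 CPM in flox and Cre and 0 to 5.38 CPM elsewhere.

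Csf2rb (chr15:78325752-78353847, plus strand) and Csf2rb2 (chr15:78282507-78305721, minus strand) are neighbours and near copies, so how well reads tell them apart bears on the values of both. Their coding sequences of 2688 and 2634 bases were identical at 2503 of 2628 aligned bases (95.2%). The start of each, from coding base 1 to base 240 and to base 243, is shown from GRCm38 with the bases that differ between the copies in capitals:
Csf2rb: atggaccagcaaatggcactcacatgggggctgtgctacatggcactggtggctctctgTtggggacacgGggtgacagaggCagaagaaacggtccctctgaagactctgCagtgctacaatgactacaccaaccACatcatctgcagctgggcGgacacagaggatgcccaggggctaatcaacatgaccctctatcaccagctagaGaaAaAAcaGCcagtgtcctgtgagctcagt
Csf2rb2: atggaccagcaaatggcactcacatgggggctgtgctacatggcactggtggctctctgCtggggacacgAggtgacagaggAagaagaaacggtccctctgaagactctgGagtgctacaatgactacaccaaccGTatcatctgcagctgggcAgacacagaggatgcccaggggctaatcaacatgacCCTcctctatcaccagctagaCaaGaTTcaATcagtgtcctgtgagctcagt
The capitals cover 13 bases of Csf2rb and 16 of Csf2rb2, the latter with 3 inserted bases, so a read that covers a capital can be told from its copy. The longest identical run was 242 bases at coding bases 2083 to 2324 of both. It lies in 1 exon of each (Csf2rb at chr15:78348577-78348818, Csf2rb2 at chr15:78284630-78284871). Runs outside the coding sequence were not searched, so it is shown as the longest coding stretch where a read by itself cannot be assigned:
Identical run: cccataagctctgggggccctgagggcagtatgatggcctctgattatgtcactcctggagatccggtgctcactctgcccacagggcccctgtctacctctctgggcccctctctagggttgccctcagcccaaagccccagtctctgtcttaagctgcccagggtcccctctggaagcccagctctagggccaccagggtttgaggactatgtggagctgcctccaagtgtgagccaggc
Of all words of 55 bases, the read length, 797 were shared, which is 15.3% of those in Csf2rb and 16.8% of those in Csf2rb2. A read that lies wholly in a shared stretch fits both copies, unless its mate covers a base that differs. Mates were not considered in these shares. They are shares of sequence and set no bound on the error in the level of either gene. That error was not measured, and it can be large for the copy with far fewer counts. In 5xFAD/IRF8KO library 2, for example, Csf2rb had 1350 counts and Csf2rb2 had 21.

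Irf8 loss at 3 months is the first comparison. Of the 8 genes, 4 rose and none fell, where 4.15% of 13121 tested genes rose, 3.24% fell and 7.39% changed in either direction. The median log2 fold change of the 8 was 0.63, against -0.020 over all genes tested. The genes that rose were the ligand Csf1, both GM-CSF receptor chains Csf2ra and Csf2rb, and Csf3r.

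Csf3r was 116, 171, 175 and 125 CPM in the WT libraries and 529, 435, 660 and 574 CPM in IRF8KO, with no overlap. Its log2 fold change was 1.78 (SE 0.28, edgeR adjusted p = 0.00417), and the call held in each of 8 fits without 1 library (edgeR adjusted p = 0.00609 to 0.0215). Csf1 was 4.77, 8.33, 2.4 and 8.02 CPM in the WT libraries and 33, 21.7, 23.5 and 43.5 CPM in IRF8KO. The groups were again apart (log2 fold change 2.21, SE 0.54, edgeR adjusted p = 0.0302). That call is fragile, since the edgeR adjusted p became 0.102, 0.0566, 0.0559 and 0.101 without IRF8KO library 1, 2, 3 or 4, 0.0506 without WT library 1, and 0.109 with a Y-linked score as covariate.

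Csf2ra was 91.9, 108, 50.7 and 48.9 CPM in the WT libraries and 241, 220, 272 and 193 CPM in IRF8KO, a log2 fold change of 1.48 (SE 0.36, edgeR adjusted p = 0.0274). Every IRF8KO library lay above every WT library. Csf2rb was 23.0, 24.1, 16.9 and 8.27 CPM in the WT libraries and 82.6, 60.1, 92.0 and 61.3 CPM in IRF8KO (1.90, SE 0.40, edgeR adjusted p = 0.0152), also without overlap. Without IRF8KO library 1, 2, 3 or 4 the edgeR adjusted p of Csf2ra was 0.0868, 0.0734, 0.0704 or 0.0508. That of Csf2rb was 0.0626 without IRF8KO library 1, 0.05 without library 3, and 0.0997 in 1 model of all 33 libraries.

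Csf1r did not pass the test at 3 months. It was 1380, 1540, 3950 and 3300 CPM in the WT libraries and 2000, 1300, 3390 and 2770 CPM in IRF8KO, with overlapping ranges. Its log2 fold change was -0.23 (95% interval -1.08 to 0.62, edgeR adjusted p = 0.802). Csf2rb2, the beta chain that serves IL-3, was 1.73 to 7.73 CPM in the WT libraries and 2.16 to 4.21 CPM in IRF8KO (-0.26, edgeR adjusted p = 0.888). Il34 (0.37 to 4.55 and 0 to 2.6 CPM) and Flt3 (0.741 to 3.89 and 0 to 4.21 CPM) also overlapped and did not pass.

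Other cells' RNA moved with the genotype at 3 months. Of the neutrophil genes, 4 of 4 of early granules, 1 of 4 of late granules and 2 of 7 of mature cells rose, and the sum of the 15 went from 0.867% to 5.4% of counts in WT to 7.75% to 16.7% in IRF8KO. Elane was at 0 in all 4 WT libraries. The microglia sum was 1.07% to 2.57% and 0.52% to 0.929%, with 5 of 10 markers lower, and 2 of 7 border macrophage markers rose. The part of these cells in the rise of Csf1, Csf2ra, Csf2rb and Csf3r was not tested.

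Irf8 loss at 9 months gave another pattern. Of the 8 genes, 2 fell (Csf1r and Csf2rb2) and 1 rose (Il34), where 8.68% of 14604 tested genes fell, 19.6% rose and 28.3% changed in either direction. The median log2 fold change was -0.90 for the 8 and 0.25 over all genes.

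Csf1r was 15700, 11000 and 16600 CPM in the WT libraries and 2310, 686 and 1600 CPM in IRF8KO. No IRF8KO library came near a WT library, and the log2 fold change was -2.86 (SE 0.40, 95% interval -3.65 to -2.08, edgeR adjusted p = 0.000258). The call held in each of 6 fits without 1 library (edgeR adjusted p = 0.000125 to 0.00128). Csf2rb2 was 26.1, 28.1 and 36.3 CPM in the WT libraries and 0, 0.122 and 0 CPM in IRF8KO. That is 219 counts against 1, a ratio 642-fold lower in IRF8KO with a 95% counting interval of 114-fold to 25500-fold (edgeR adjusted p = 0.00329). It too kept its call without any 1 library (edgeR adjusted p = 0.00855 to 0.0129).

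Csf2rb was not called at 9 months, and its difference from its copy was not tested. It was 94.5, 92.6 and 129 CPM in the WT libraries and 46.2, 0 and 67.0 CPM in IRF8KO (log2 fold change -1.19, 95% interval -4.07 to 1.70, edgeR adjusted p = 0.596). IRF8KO library 2 had no Csf2rb count among 8170797, which allows up to 0.367 CPM, while the other 2 had 379 and 480 counts. All 3 IRF8KO libraries lay below WT, but with that library the spread within IRF8KO was wide and the difference did not pass.

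Csf3r was 749, 753 and 809 CPM in the WT libraries and 731, 185 and 376 CPM in IRF8KO. All 3 IRF8KO libraries were below WT, yet the spread within IRF8KO was wide and the log2 fold change of -0.46 (95% interval -1.37 to 0.46, edgeR adjusted p = 0.51) did not pass. Csf1 was 19.3, 7.77 and 13.2 CPM in the WT libraries and 40.6, 23.1 and 17.7 CPM in IRF8KO, with overlap (1.41, SE 0.60, edgeR adjusted p = 0.0985). It passed with DESeq2 (adjusted p = 0.0236) and in the model of all 33 libraries (edgeR adjusted p = 0.022). Csf2ra was 98.0 to 139 CPM in the WT libraries and 51.1 to 67.7 CPM in IRF8KO (-0.61, 95% interval -1.29 to 0.069, edgeR adjusted p = 0.21). Flt3 was 1.22 to 5.38 CPM and 0 to 0.49 CPM (edgeR adjusted p = 0.132).

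Il34, at 0 in all 3 WT libraries, had 59 counts in IRF8KO (0.487, 1.84 and 5.58 CPM). This is at least 7.06-fold higher, taking 3 counts over the WT group as the floor (edgeR adjusted p = 0.0338). The edgeR adjusted p was 0.0638 and 0.0753 without IRF8KO library 2 or 3, and 0.17, 0.108 and 0.0849 without WT library 1, 2 or 3. All 7 neuron markers rose in the same comparison, from 2.08 to 5.38 CPM to 585 to 2880 CPM in sum. All 15 neutrophil genes rose, from at most 0.000496% of counts in WT to 6.53% to 9.13%, and 9 of 10 microglia markers fell, from 5.22% to 5.97% in sum to 0.341% to 0.736%. Called higher were also 7 of 7 astrocyte, 7 of 8 oligodendrocyte, 5 of 5 red blood cell, 5 of 7 border macrophage and 2 of 4 tested monocyte markers. Reads in genes made up 74.67% to 77.35% of each WT library and 48.63% to 53.44% of each IRF8KO library. The part of these in the fall of Csf1r and Csf2rb2 was not tested.

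Within 5xFAD, loss of Irf8 was compared next. Csf1r and Csf2rb2 fell and Il34 rose, 3 of the 8 genes, where 9.72% of 14604 genes fell, 18% rose and 27.8% changed in either direction. The median log2 fold change of the 8 was 0.10, against 0.24 over all genes.

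Csf1r was 7980, 6180 and 5800 CPM in 5xFAD and 1610, 2250 and 1350 CPM in 5xFAD/IRF8KO. The groups were apart by more than their spread (log2 fold change -1.81, SE 0.38, 95% interval -2.56 to -1.06, edgeR adjusted p = 0.00454). Y-linked transcripts summed to 0 to 156 CPM in 5xFAD and 230 to 269 CPM in 5xFAD/IRF8KO. With a Y-linked score as covariate the value of Csf1r was -1.20 and the edgeR adjusted p 0.105. Csf2rb2 was 17.6, 24.4 and 11.9 CPM in 5xFAD and 0.153, 1.66 and 0 CPM in 5xFAD/IRF8KO, a log2 fold change of -4.70 (SE 1.37, edgeR adjusted p = 0.0236). Here the call was lost without 5xFAD library 1 (edgeR adjusted p = 0.063), 5xFAD library 2 (0.0775) or 5xFAD/IRF8KO library 1 (0.0548), with only the 2 groups in the fit (0.0601) and with the Y-linked score (0.149).

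Csf2rb was not called within 5xFAD, and its difference from its copy was not tested. It was 62.5, 64.3 and 65.3 CPM in 5xFAD and 50.2, 106 and 0.171 CPM in 5xFAD/IRF8KO (-0.13, 95% interval -2.96 to 2.70, edgeR adjusted p = 0.957). The low library, 5xFAD/IRF8KO library 3, had 2 counts where the others had 656 and 1350. Csf3r was 780, 770 and 644 CPM and 556, 666 and 199 CPM (-0.49, 95% interval -1.40 to 0.42, edgeR adjusted p = 0.478). Csf1 (12.9 to 23.8 and 20 to 31.5 CPM), Csf2ra (79.8 to 111 and 67.6 to 169 CPM) and Flt3 (0.518 to 1.84 and 1.07 to 2.99 CPM) overlapped and did not pass.

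Il34 had 34 counts in 5xFAD/IRF8KO (1.61, 0.394 and 0.682 CPM) and none in 5xFAD. That is at least 5.75-fold higher over a floor of 3 counts in the group (edgeR adjusted p = 0.0405). The call was lost whichever of the 6 libraries was left out: the edgeR adjusted p was 0.164, 0.14 and 0.106 without 5xFAD library 1, 2 or 3, and 0.0926, 0.0556 and 0.0642 without 5xFAD/IRF8KO library 1, 2 or 3. As without the transgenes, all 7 neuron markers (2.35 to 4.15 CPM against 428 to 1530 CPM in sum) and all 15 neutrophil genes (8.29% to 14.9% of counts in 5xFAD/IRF8KO) rose, and all 10 microglia markers fell. Also called higher were 6 of 7 astrocyte, 6 of 8 oligodendrocyte, 5 of 5 red blood cell and 5 of 7 border macrophage markers, and reads in genes went from 77.3% to 78.56% in 5xFAD to 56.8% to 72.03% in 5xFAD/IRF8KO. Their part in these changes was not tested.

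**Figure D3:**
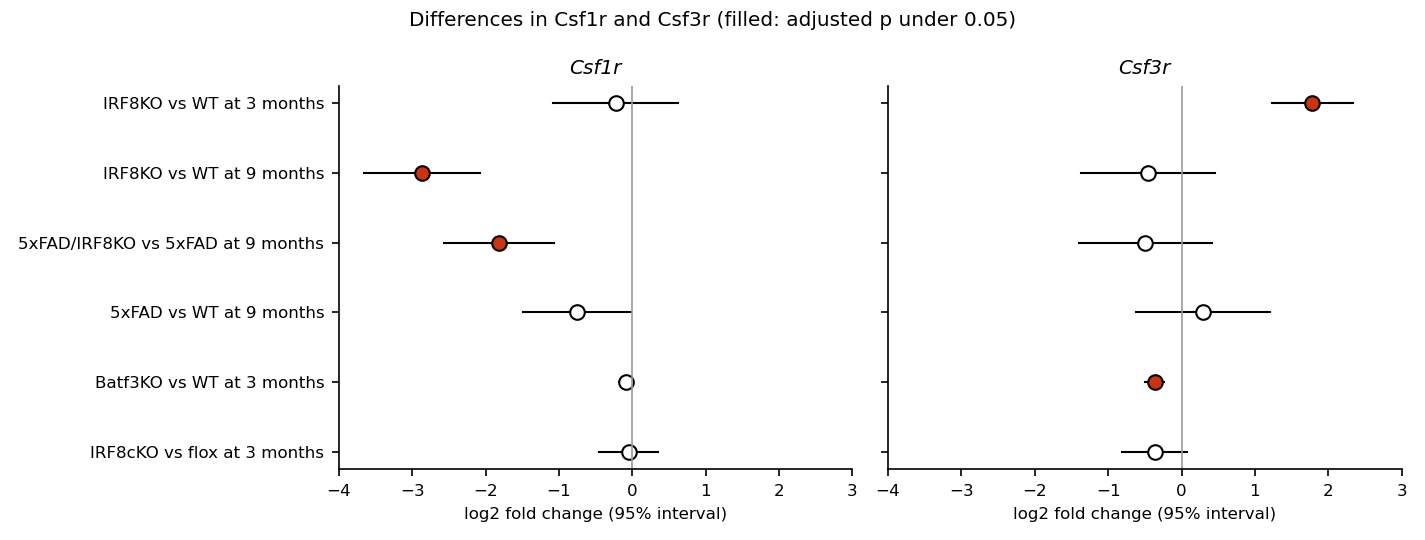
Log2 fold changes of Csf1r (left) and Csf3r (right) on the horizontal axis with 95% intervals, for 6 genotype comparisons on the vertical axis, filled where the edgeR adjusted p is under 0.05. Csf1r is filled at 9 months only (-2.86 and -1.81), and Csf3r for IRF8KO at 3 months (1.78) and for Batf3KO (-0.37).

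With the 5xFAD transgenes alone, 0 of the 8 genes were called (0 at an unadjusted p under 0.05 with edgeR, and 0 with DESeq2), where 1.99% of all genes changed. The nearest to a change was Csf1r, whose 5xFAD libraries (5800 to 7980 CPM) all lay below WT (11000 to 16600 CPM). Its log2 fold change was -0.75 (95% interval -1.49 to -0.019, edgeR adjusted p = 0.519), and with only these 2 groups in the fit it was -0.85 with an edgeR adjusted p of 0.00168. Csf3r overlapped (0.29, 95% interval -0.63 to 1.20, edgeR adjusted p = 1). Csf2rb (62.5 to 65.3 against 92.6 to 129 CPM) and Csf2rb2 (11.9 to 24.4 against 26.1 to 36.3 CPM) lay lower in CPM without overlap. Their log2 fold changes after scaling were -0.35 (95% interval -3.20 to 2.5) and -0.37 (-2.67 to 1.94). Y-linked transcripts summed to 275 to 307 CPM in the WT libraries and 0 to 156 CPM in 5xFAD.

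Without Irf8, the 5xFAD transgenes gave 0 calls among the 8 genes, where 0.123% of all genes rose, 0.0411% fell and 0.164% changed in either direction. Here 2 had an unadjusted p under 0.05 with edgeR and 0 were called by DESeq2. Csf2ra was 51.1, 54.5 and 67.7 CPM in the IRF8KO libraries and 103, 169 and 67.6 CPM in 5xFAD/IRF8KO (1.07, 95% interval 0.39 to 1.75, edgeR adjusted p = 0.213), and the model of all 33 libraries called it (1.09, edgeR adjusted p = 0.0353). Csf2rb2 had 23 counts against 1, a ratio of 14.4 with a 95% counting interval of 2.35 to 595 (edgeR adjusted p = 0.363). Neither Csf1r (0.30, 95% interval -0.43 to 1.03) nor Csf3r (0.25, -0.66 to 1.16) passed, and the sign of both turned without IRF8KO library 2 (-0.0066 and -0.069), that of Csf3r also without 5xFAD/IRF8KO library 2 (-0.11). The interaction of 5xFAD and IRF8KO, which tests whether the effects of Irf8 loss differ with the transgenes, called 0 of 8 (0 at an unadjusted p under 0.05 with edgeR and 0 with DESeq2), where 0.192% of all genes were called higher, 0.247% lower and 0.438% in either direction. For Csf1r it was 1.05 (95% interval 0.018 to 2.09, edgeR adjusted p = 0.397) and for Csf3r -0.037 (-1.33 to 1.25).

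The effect of Irf8 loss at 9 months was then tested against that at 3 months. Of the 8 genes, 5 differed, 4 of them lower and 1 higher, where 5.92% of 15512 genes were lower, 18% higher and 24% called in either direction. Csf1r differed by -2.56 (SE 0.63, 95% interval -3.80 to -1.33, edgeR adjusted p = 0.00716) and Csf3r by -2.17 (SE 0.49, -3.13 to -1.21, edgeR adjusted p = 0.0041). Csf2ra differed by -2.02 (SE 0.48, edgeR adjusted p = 0.00559) and Csf2rb2 by -8.21 (SE 1.45, edgeR adjusted p = 0.000613), and all 4 calls held in each of 14 fits without 1 library. Csf2rb differed by -2.99 (SE 1.27, edgeR adjusted p = 0.0952), and without IRF8KO library 2 at 9 months, the library with no count, by -2.42 (edgeR adjusted p = 0.00781). Il34 was called (edgeR adjusted p = 0.046) but has no size, since WT at 9 months was at 0, and it lost its call in 11 of the 14 fits (edgeR adjusted p up to 0.151). Age and experiment cannot be told apart here. The WT groups differed in other cells' RNA as well, with neutrophil genes at 0.867% to 5.4% of counts at 3 months against at most 0.000496% at 9 months.

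The WT groups at 3 months were compared with each other as well. WT of the IRF8KO experiment differed from WT of the Batf3 experiment in 7 of the 8 genes, 5 lower and 2 higher, where 16.3% of 14621 genes were lower, 26.5% higher and 42.8% differed in either direction. Csf1r (1380 to 3950 against 23500 to 24500 CPM, log2 fold change -2.96, edgeR adjusted p = 0.00138), Csf3r (116 to 175 against 1050 to 1100 CPM, -2.59, edgeR adjusted p = 0.000189), Csf2rb (-3.01), Csf2rb2 (-3.25) and Csf1 (-1.98) were lower. Csf2ra (2.06) and Il34 (4.83) were higher, and Flt3 was not called. Calls were lost for Csf1 without WT library 1 of the Batf3 experiment (edgeR adjusted p = 0.0585), and for Il34 without library 1, 2 or 3 of that group (0.0759, 0.0767 and 0.0839). Neutrophil, neuron and red blood cell genes were higher in the former group (red blood cell sum 3.05% to 10.3% against 0.01% to 0.0221%), and 5 of 10 microglia markers were lower. Of 5 sex-linked genes, 4 were called higher and 1 lower, although both groups are labelled female. The part of these in the differences was not tested.

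With loss of Batf3, 1 gene, Csf3r, fell among the 7 that could be tested, where 2.42% of 13128 genes fell and 3.83% changed in either direction. Csf3r was 1100, 1050 and 1080 CPM in the WT libraries and 816, 872 and 816 CPM in Batf3KO. The groups were apart by more than their spread, and the fall was small (log2 fold change -0.37, SE 0.066, 95% interval -0.50 to -0.24, edgeR adjusted p = 0.00776). Without Batf3KO library 1 it was -0.34 with an edgeR adjusted p of 0.0612. In the model of all 33 libraries, whose groups vary more, it was -0.42 (edgeR adjusted p = 1).

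Csf1r was not called in that comparison. It was 24500, 23500 and 24100 CPM in the WT libraries and 22000, 22800 and 23000 CPM in Batf3KO, lower in every Batf3KO library. The log2 fold change was -0.086 (95% interval -0.18 to 0.0084, edgeR adjusted p = 0.373), so a fall beyond 0.18 lies outside its interval. Csf2rb was 178, 188 and 168 CPM and 146, 159 and 160 CPM (-0.20, edgeR adjusted p = 0.249), and Csf2rb2 was 49.3, 41.6 and 43.7 CPM and 38.7, 32.5 and 39.2 CPM (-0.29, edgeR adjusted p = 0.25). Both were lower in every Batf3KO library without passing. Csf1 (-0.26), Csf2ra (0.30) and Flt3 (-0.49) overlapped. Il34, with 5 counts in WT and 0 in Batf3KO, was too low to test. The median of the members was -0.26 against 0.0024 over all genes, and none of the 10 microglia markers or of the 2 neutrophil genes that could be tested was called by edgeR. Markers of other cells were called lower, namely 1 of 3 tested of border macrophages, 1 of 4 of neurons, 2 of 6 of oligodendrocytes, 1 of 7 of astrocytes and 1 of 3 of endothelial cells, and 1 sex-linked gene was called higher. Their part in the fall of Csf3r was not tested.

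In the conditional deletion, 0 of the 8 genes were called with all 7 libraries. With edgeR, 0 of 15512 genes were called in all (0%), although 1407 had an unadjusted p under 0.05 with edgeR. Among the 8, 2 had such a p (Csf1 and Csf2rb2), and DESeq2 called 1 (Csf1). Csf1 was 29.6, 22.5 and 30.1 CPM in flox and 20, 9.02, 5.96 and 4.29 CPM in Cre (log2 fold change -1.48, SE 0.37, edgeR adjusted p = 0.203, DESeq2 adjusted p = 0.0146). Csf2rb2 was 6.59, 2.8 and 4.04 CPM in flox and 4.38, 19.4, 10.7 and 13 CPM in Cre (1.51, SE 0.47, edgeR adjusted p = 0.303). In both genes the library labelled Cre replicate 1, whose Irf8 was at the flox level, lay nearest to or within the flox range.

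Without that library, 2 of the 7 members that could be tested were called, where 6.24% of 15264 genes were called, 3.74% higher and 2.5% lower. Csf1 fell by 2.01 on the log2 scale (edgeR adjusted p = 1.97e-05) and Csf2rb2 rose by 1.79 (edgeR adjusted p = 0.00113). The remaining Cre libraries held 4.29 to 9.02 CPM of Csf1 against 22.5 to 30.1 CPM in flox, and 10.7 to 19.4 CPM of Csf2rb2 against 2.8 to 6.59 CPM. Microglia markers summed to 3.61% to 4.28% of counts in Cre and 4.33% to 4.56% in flox, and neutrophil genes to at most 0.0112% in either arm. The border macrophage markers summed to 121, 111 and 157 CPM in flox and to 204, 9.53, 6.45 and 11 CPM in Cre replicates 1 to 4, so they were lower in the 3 Cre libraries with low Irf8, though none was called by edgeR with all 7 libraries. The part of border macrophage RNA in the difference of Csf1 and Csf2rb2 was not tested. Driver, reporter and the sort for YFP went with the Cre arm, so they cannot be told apart from the deletion of Irf8.

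Neither Csf1r nor Csf3r passed in the conditional experiment. Csf1r was 3670, 3580 and 3270 CPM in flox and 3070, 3900, 2760 and 3340 CPM in Cre (log2 fold change -0.049, 95% interval -0.45 to 0.35, edgeR adjusted p = 0.989). Csf3r was 306, 306 and 222 CPM and 188, 262, 162 and 219 CPM (-0.37, 95% interval -0.81 to 0.078, edgeR adjusted p = 0.73). Both overlapped, and without the library labelled Cre replicate 1 the values were 0.017 (95% interval -0.38 to 0.41) for Csf1r and -0.28 (-0.70 to 0.13) for Csf3r. Csf2rb was 36.2, 33.5 and 30.4 CPM in flox and 18.3, 59.7, 38.0 and 46.1 CPM in Cre (0.36, edgeR adjusted p = 0.872). Without Cre replicate 1 its groups parted (0.61, 95% interval 0.22 to 1.01, edgeR adjusted p = 0.0873) and it still did not pass. Csf2ra (19.8 to 25.7 and 14.6 to 25.2 CPM), Il34 (0.507 to 2.02 and 0.243 to 1.8 CPM) and Flt3 (4.52 to 8.96 and 4.65 to 9.73 CPM) overlapped.

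**Figure D4:**
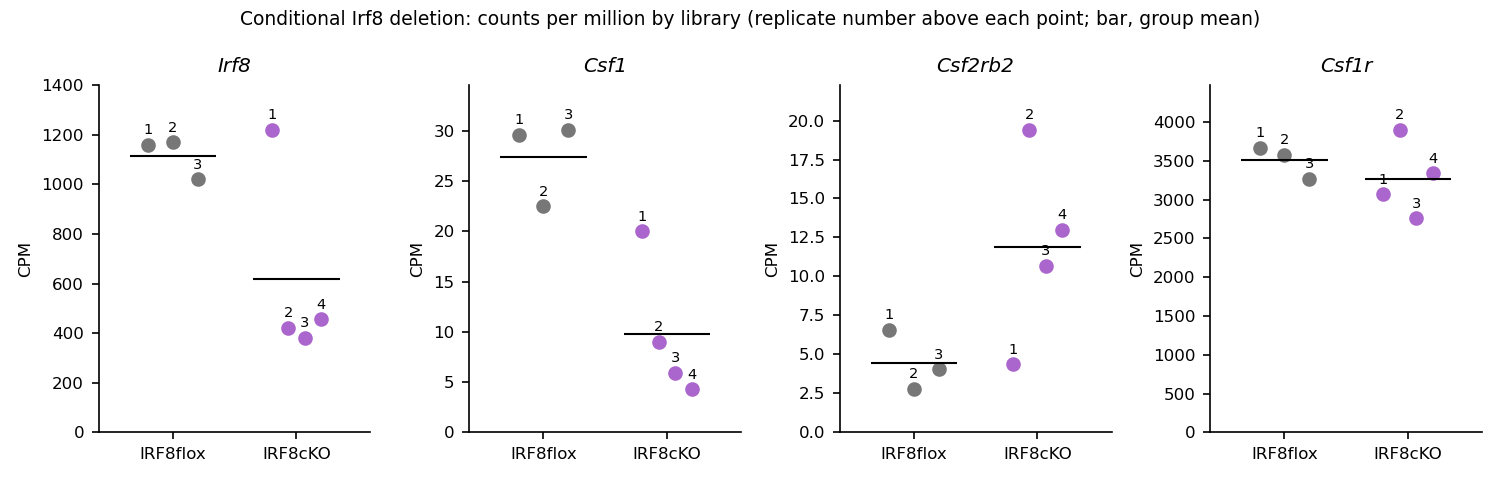
CPM of Irf8, Csf1, Csf2rb2 and Csf1r (linear vertical axes from 0) in 3 IRF8flox and 4 IRF8cKO (Cre) libraries, 1 point per library with its replicate number and a bar at the group mean. IRF8cKO replicate 1 sits at 1220 CPM of Irf8, beside IRF8flox, while the other 3 sit at 382 to 457 CPM, and Csf1 and Csf2rb2 part the same way.

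Since Csf1 and Csf2rb2 moved in opposite directions without that library, the bases upstream of their RefSeq start sites are shown (RefSeq, GRCm38.p6). Entries were found for 5 of the 8 genes. The capitals mark GAGGAA on the minus strand of the printed sequence, the core of the purine box that the IRF8 partner PU.1 binds:
Csf1 (chr3:107760470-107760719, minus strand): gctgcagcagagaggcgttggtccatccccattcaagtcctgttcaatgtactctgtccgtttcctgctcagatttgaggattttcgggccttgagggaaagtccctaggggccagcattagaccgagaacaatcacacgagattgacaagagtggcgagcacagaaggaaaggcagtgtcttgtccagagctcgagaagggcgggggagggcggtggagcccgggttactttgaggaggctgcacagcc
Csf2rb2 (chr15:78305722-78305971, minus strand): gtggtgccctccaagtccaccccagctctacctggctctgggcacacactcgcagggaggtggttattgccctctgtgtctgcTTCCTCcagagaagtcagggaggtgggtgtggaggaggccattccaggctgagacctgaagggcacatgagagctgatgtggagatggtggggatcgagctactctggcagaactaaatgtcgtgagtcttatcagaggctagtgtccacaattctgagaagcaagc
The match in Csf2rb2 lay at -167 to -162 from the start site. Csf3r held GAGGAA at -86 to -81 and Csf2ra at -14 to -9 and -8 to -3. The last 109 bases of the Csf3r window and 11 of the Csf2ra window lie inside the gene in the GENCODE annotation. They hold the Csf3r match, the Csf2ra match at -8 to -3 and part of that at -14 to -9. Searches on both strands also covered the ETS-IRF composite element (GGAA and GAAA with 2 free bases between), the interferon-stimulated response element (GAAA and GAAA, spaced alike) and the C/EBP box TTGCNNAA. None of these letters were found in the windows of the 5 genes. Of 32851 windows of 250 bases, 23.3% held GAGGAA, 2.3%, 2.98% and 9.56% the others. A match is a string of letters and not a binding site.

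The wider pathway was followed in 4 lists: 11 other cytokines and receptors of the group, 24 signal transducers, 14 negative regulators and 7 transcription factors of the receptor genes. In IRF8KO at 3 months, 4 of 24 transducers (Stat3, Shc1, Fgr, Syk), 3 of 14 negative regulators (Cbl, Dok3, Dusp6) and 2 of 7 transcription factors (Cebpe, Gfi1) rose, where 4.15% of all genes rose and 3.24% fell, and none of the lists had a gene that fell. Shc1, an adaptor between receptors and Ras, rose most among the transducers, from 9.63 to 59.8 CPM on average (log2 fold change 2.54, SE 0.38, edgeR adjusted p = 0.00304), and held in all 8 fits without 1 library. The others with the largest rise in their list, Fgr (2.32), Cbl (1.59), Dok3 (1.49), Gfi1 (4.34) and Cebpe (2.83), lost their call in 5, 6, 7, 6 and 3 of these fits, among them those without IRF8KO library 1 (edgeR adjusted p = 0.082, 0.0524, 0.112, 0.0801 and 0.0804). Cebpe and Gfi1 act in granulocyte maturation.

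At 9 months the transducers went both ways. In IRF8KO, 4 of 24 rose, among them Fgr, Fyn and Ptpn11, and 6 fell, among them Gab1, Plcg2, Akt1, Src and Lyn, where 19.6% and 8.68% of all genes did so. Fgr, a myeloid Src-family kinase, rose from 6.16 to 146 CPM (4.95, SE 0.54, edgeR adjusted p = 4.51e-05), and Gab1, a docking protein of receptor tyrosine kinases, fell from 102 to 8.94 CPM (-3.05, SE 0.76, edgeR adjusted p = 0.0107). Cebpa, a factor of early myeloid cells, fell from 64.9 to 5.55 CPM (-3.17, edgeR adjusted p = 0.0034), while Cebpe and Gfi1, at 0 in WT, were at least 120-fold and 63.2-fold higher. The calls of Fgr, Gab1, Cebpa, Cebpe and Gfi1 held in all 6 fits without 1 library. Src lost its call in 5 of them, with an edgeR adjusted p up to 0.131 (without WT library 1), and Fyn without WT library 1, 2 or 3 (0.0772, 0.0792 and 0.0913). Of 5 ligands and receptors tested, Ptprz1, a receptor of IL-34 on glia, rose (1519 counts against 1), and so did Kit, the stem cell factor receptor, although without WT library 1 the edgeR adjusted p of Kit was 0.0527. The astrocyte markers, 7 of 7 of which rose, summed to 209 to 223 CPM in WT and 2350 to 2950 CPM in IRF8KO. The part of glial RNA in the rise of Ptprz1 was not tested.

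Within 5xFAD, 6 of 24 transducers rose and 1 fell, and 3 of 7 transcription factors rose and 1 fell, where 18% of all genes rose and 9.72% fell. Fgr (4.01), Fyn (2.72), Cebpe and Gfi1 rose and Cebpa (-2.53) and Dok1 (-2.25), an inhibitor of Ras signalling, fell in 5xFAD/IRF8KO, each in all 6 fits without 1 library. With the Y-linked score as covariate, the edgeR adjusted p was 0.103 for Dok1, 0.0521 for Cebpa and 0.0538 for Fyn. Tyrobp, the adaptor of TREM2 that also takes part in CSF1R signalling, fell from 6130 to 1920 CPM (-1.54, SE 0.30, edgeR adjusted p = 0.00277). It was also the only list gene to rise in 5xFAD against WT, from 1820 to 6130 CPM (2.09, SE 0.31, edgeR adjusted p = 0.0123). That rise lost its call without 5xFAD library 2 or 3 (edgeR adjusted p = 0.0697 and 0.0923) and without WT library 1, 2 or 3 (0.138, 0.0579 and 0.108). In Batf3KO, Runx1, Cebpa (0.51) and Cebpb (0.66) of the transcription factors and Dusp6 (0.38) of the negative regulators rose, and no list gene fell. Cebpa kept its call in all 6 fits without 1 library, but not with a replicate block (edgeR adjusted p = 0.0626) or in the model of all 33 libraries (edgeR adjusted p = 1). Dusp6 lost it without Batf3KO library 1 (edgeR adjusted p = 0.0694) and WT library 2 (0.0979), and Cebpb in 5 fits, with an edgeR adjusted p up to 0.126 without Batf3KO library 3. In the conditional experiment with all 7 libraries, 0 of the list genes were called, and 2 transducers, 2 negative regulators and 1 transcription factor had an unadjusted p under 0.05 with edgeR. Between the WT groups at 3 months, 14 of 24 transducers and 8 of 14 negative regulators were lower in the IRF8KO experiment, and 1 transducer (Tyrobp) and 2 negative regulators (Socs2, Cish) were higher, where 16.3% of all genes were lower and 26.5% higher.

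Rank correlations of log2 CPM across the 33 libraries are given as a description, since libraries share groups, depth and other cells' RNA. Csf1r went with Csf2rb2 (Spearman rho 0.924) and Csf3r with Csf2rb (0.909), while the value for Csf1r and Csf3r was 0.738, that for Csf1r and its ligand Csf1 0.087, and that for Csf3r and Il34 -0.68. Among 11066 other genes, those closest to Csf1r were Adam15 (0.965), Itgb5 (0.964) and Map3k14 (0.961), and those closest to Csf3r were Tor4a (0.963), Uba7 (0.945) and Ptbp1 (0.939). Csf2rb2 was closest to Slco2b1 (0.958), Evl (0.955) and Eng (0.954), and Csf2rb to Map3k11 (0.931), Tor4a (0.919) and Fes (0.911). The ligand Il34 was closest to Kcnj3 (0.855), Elavl2 (0.854) and Resp18 (0.846), 3 genes known from neurons and neuroendocrine cells. No gene came above 0.851 for Csf2ra (Cited2), 0.764 for Flt3 (Acrbp) or 0.753 for Csf1 (Itgb2).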

How the data were processed

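RNA from FACS-sorted microglia was amplified with SMART-Seq v4 and made into Nextera XT libraries, and read as paired ends of 55 bases, per the labels. The authors deposited per-gene counts, whole numbers with no normalization, in the layout of STAR. STAR 2.5.2b, Picard 2.17.11, bcl2fastq, Subread, featureCounts and the mm10 build are named, per the submitters' processing notes, without their roles. The column without strand was used. Rows that name no gene were kept out, and 47.31% to 78.56% of each library's reads fell in genes. Gene IDs were matched to GENCODE annotation of GRCm38, with 54079 of 54146 found.

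CPM was computed over counts in genes. Each comparison was fitted with edgeR 4.0.16 (quasi-likelihood test, legacy version, TMM scaling, filterByExpr) in R 4.3.3 and adjusted by Benjamini-Hochberg over all genes tested, with the 12 libraries at 9 months in 1 fit. The age comparison used both IRF8KO experiments, and the code was tested on simulated data. Alternatives were DESeq2 1.42.0, RLE size factors, no filter, 1 model of 33 libraries, a replicate block, a Y-linked score as covariate and each library left out. Library size alone and the newer quasi-likelihood version were added after seeing the data. The members and lists were chosen with earlier results of these data known. A few list genes are counted but not reported here by name. Named were the 8 members, Irf8 and Batf3, up to 2 called genes per direction in each pathway list, and the 3 genes with the highest Spearman correlation to each member among genes that average 5 CPM or more.

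The libraries come from each brain, and nothing more says that they are separate animals, so p-values measure the spread between these samples. Counting intervals (95%, exact) and floors of 3 counts cover counting error only, since reads carry no molecular identifiers. The 95% intervals of log2 fold changes are the value plus or minus 1.96 SE. This multiplier ignores how few libraries estimate the spread, so these intervals are narrower than the edgeR test allows. An interval can therefore leave out 0 where the unadjusted p is above 0.05. At the depth of 605376 counts in the shallowest library, 3 counts are 4.96 CPM, and at 18357762 counts they are 0.163 CPM. Same-numbered libraries were not taken as pairs.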

Additional observations from a re-analysis of the deposited data

Results flagged for a closer look

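Il34 in IRF8KO at 3 months was 0.162, 0, 2.6 and 0 CPM, and library 3 stood apart from the other 3 by more than Dixon's test at 95% allows. This was the single such library in 24 groups of values tested, where chance gives about 1 in 20. The neuron markers summed to 71.5 to 512 CPM in these 4 libraries.

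The effect of Irf8 loss differed between 9 and 3 months in an edgeR test of the difference itself for 5 of the 8 genes, against 24% of all genes. The differences on the log2 scale were -2.56 for Csf1r, -2.02 for Csf2ra, -8.21 for Csf2rb2 and -2.17 for Csf3r. Il34 had an edgeR adjusted p of 0.046 and no size. Age and experiment cannot be told apart in this test.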

How the results depend on the processing

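Over the comparisons of the report, members called were 3 in IRF8KO at 9 months, and 5 with DESeq2. They were 0 for 5xFAD against WT, and 1 with only those groups in the fit. They were 3 for 5xFAD/IRF8KO against 5xFAD, with 1 when only those groups were fitted and 0 with the Y-linked score. They were 0 for 5xFAD/IRF8KO against IRF8KO, and 1 in the model of all 33 libraries. For Batf3KO the 1 call became 0 in the model of all 33 libraries. For the conditional deletion the count of 0 became 1 with DESeq2 and 2 with no filter. With 1 library left out the members called ranged from 1 to 4 in IRF8KO at 3 months, 2 to 3 at 9 months, 1 to 2 in 5xFAD/IRF8KO against 5xFAD, 0 to 1 in Batf3KO, 0 to 2 in the conditional deletion, 5 to 7 between WT groups and 4 to 5 in the age comparison. The cause was not tested.

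Signs turned only for values that had not passed. Csf3r in 5xFAD against WT was -0.0748 with library size alone and -0.414 with the Y-linked score. In 5xFAD/IRF8KO against 5xFAD it was 0.181 with that score. Its interaction was 0.207 with library size alone, 0.0245 with no filter and 1.13 with the score, and -0.406 to 0.657 with 1 library left out. In 5xFAD/IRF8KO against IRF8KO, leaving out 1 library gave -0.00661 to 0.752 for Csf1r and -0.11 to 0.898 for Csf3r. Csf1r in the conditional deletion ranged from -0.151 to 0.049.

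The labels do not say whether replicate numbers mark a shared batch. The replicate block ended the call of Csf3r in Batf3KO (edgeR adjusted p = 0.0723, 0 members called) and of Il34 at 9 months (0.0911), within 5xFAD (0.099) and in the age comparison (0.0703). In no comparison were all same-numbered correlations above 0.1 (such as -0.0488, 0.162, 0.176 and 0.0814 at 3 months). At 3 months, WT libraries 2, 3 and 4 each correlated best with the IRF8KO library of the same number, and library 1 did not. In the Batf3 experiment, WT libraries 1, 2 and 3 did not. Over all genes, calls went from 970 at 3 months to 488 with the Y-linked score and 3300 in the model of 33 libraries, and from 4136 at 9 months to 6836 in that model. They went from 290 in 5xFAD to 20 with the score and 4546 with those groups alone, from 4054 within 5xFAD to 1482 and 6783, and from 24 for 5xFAD/IRF8KO against IRF8KO to 1452 in the model of 33. For the interaction they went from 64 to 1 and 1082, for Batf3KO from 503 to 10 and 998 (no filter), and for the age comparison from 3717 to 6342 (model of 33). The conditional deletion went from 0 to 618 with no filter and 952 without Cre replicate 1. With 1 library left out, calls over all genes fell to as few as 305 at 3 months (IRF8KO library 1), 2266 at 9 months (WT library 1), 2 for 5xFAD against WT (5xFAD library 2, and at most 102), 2325 within 5xFAD (5xFAD library 2), 219 for Batf3KO (WT library 2), 3908 between WT groups (library 1 of the Batf3 experiment) and 2191 in the age comparison (WT library 1 at 9 months). They ranged from 38 to 140 for 5xFAD/IRF8KO against IRF8KO and from 2 to 189 for the interaction, so the shares of all genes given beside the members move as well.

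Library size alone moved the median of all genes by 0.12 at 3 months, -0.37 at 9 months, -0.35 for 5xFAD, -0.11 within 5xFAD, 0.25 for the interaction, -0.29 between WT groups and -0.56 in the age comparison. The share of calls that were higher went from 56.2% to 44.4% at 3 months (DESeq2), from 69.3% to 56.8% at 9 months, from 91% to 40% for 5xFAD and from 75.3% to 58.9% in the age comparison (library size alone). It went from 75% to 44.1% for 5xFAD/IRF8KO against IRF8KO (DESeq2) and from 43.8% to 83.3% for the interaction (library size alone). The Y-linked score was not run for Batf3KO, the conditional deletion or the WT groups. WT at 9 months, the shallowest group, limits Il34 and Flt3, where 1 library of 605376 counts gives 4.96 CPM for 3 counts.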

Other observations

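Csf2rb was nearly lost in single libraries of IRF8KO genotype at 9 months. IRF8KO library 2 had 0 counts among 8170797 and 5xFAD/IRF8KO library 3 had 2 counts (0.171 CPM), while the other 4 libraries of these groups had 46.2 to 106 CPM. These are also the libraries with the lowest Csf3r (185 and 199 CPM) and the lowest Csf1r (686 and 1350 CPM) of their groups.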
